A study of Homo sapiens with 4 samples.

Results

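The actin cytoskeleton and its regulators, with the branched-actin organiser CTTN, were examined across 4 arrays as a set of 54 genes chosen by symbol. For each gene the values come from the brightest of the probe sets that the platform annotation gives to its symbol alone, control probe sets aside. Of the 54 genes, 50 had such a probe set, of 19775 genes named on the array in this way, and 49 were bright enough to be tested. No probe set naming ACTR2, WASF1 or FLNA alone was found in the annotation used here, and the 9 listed probe sets for ACTG1 also name another gene and were not used. CYFIP1, a subunit of the WAVE complex, was measured but too dim to be tested, at normalised intensities of 16.2 and 12.7 in the control clone and 6.53 and 2.13 in the DLEU1-downregulated clone. CTTN belongs to the set because it was among the largest rises in an earlier analysis of the same arrays, so its difference is described without a test. The other genes were listed by function, with earlier results of these data known, and their probe sets were chosen by brightness over all arrays.

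All samples were Raji cells, an established human Burkitt lymphoma line that carries Epstein-Barr virus, grown in RPMI medium with serum. The DLEU1-downregulated group was 1 cell clone with lowered DLEU1, a long non-coding RNA, obtained with TALENs (engineered nucleases directed to a chosen DNA site), and the control group was 1 wild-type clone, although the treatment field names the DLEU1 TALENs for all samples. Each clone was hybridised in duplicate to HG-U133 Plus 2.0 arrays, and the labels do not say whether the duplicates were separate cultures, so each p-value reflects no more than the spread among arrays, which may be technical. Differences are those between 2 clones and cannot be told apart from other differences between them.

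Actin exists as free monomers and as filaments, and its balance is set by profilin and thymosin beta, which bind monomers, and by cofilin, which severs filaments. New branches are started by the Arp2/3 complex, which is switched on by WASP and WAVE proteins downstream of the small GTPases CDC42 and RAC. Cortactin, the product of CTTN, binds Arp2/3 and stabilises the branches, and in blood cells its relative HCLS1 (HS1) usually takes that role. In B cells this machinery shapes receptor signalling, synapse formation and migration.

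The deposited intensities were quantile-normalised, because the arrays shared no common scale: the 2% trimmed means were 163 and 131 in the control clone and 172 and 197 in the DLEU1-downregulated clone. All intensities below are normalised ones unless called deposited, and log2 differences are on the log2(value + 16) scale, DLEU1-downregulated minus control. Over all tested probe sets the median log2 difference was 0.01 after normalisation, 0.16 as deposited, 0.21 with each array centred on its median and -0.09 with a common trimmed mean, and a small difference has to be read against those shifts. Across probe sets the correlation of log2 values was 0.987 for the control duplicate, 0.989 for the DLEU1-downregulated duplicate and 0.970 to 0.972 for pairs from different clones. The targeted gene, DLEU1, read 1400.4 and 1300.5 in the control clone and 505 and 513 in the other (log2 difference -1.38, limma adjusted p = 2.92e-06). B-cell markers were bright on every array, with a summed intensity over 6 genes (CD79A, CD79B, MS4A1, CD22, PAX5 and CD74) of 18466 and 18545 against 18180 and 17824. That sum hides opposite moves. CD74 was higher in the DLEU1-downregulated clone (3332 and 3339 against 5272 and 4849). The other genes were lower on both of its arrays, among them CD22 (1121 and 1149 against 560 and 621). The 5 epithelial markers summed to 65.7 and 65.8 against 72 and 59.9, and EPCAM, KRT19 and CDH1 were too dim to be tested. The 5 T-cell markers summed to 39.5 to 51.5, the 4 measured myeloid markers to 52.2 to 69.4 and the 7 fibroblast and endothelial markers to 218 and 305 against 209 and 134.

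CTTN was the member that differed most between the clones. Its brightest probe set read 32.4 and 32.5 in the control clone and 209 and 249 in the DLEU1-downregulated clone. The means of 2 arrays each were 32.4 ± 0.071 (SD) and 229 ± 28.6 (SD), which is a 7.07-fold difference, or 2.34 ± 0.15 (SE) on the log2 scale. Both arrays of the DLEU1-downregulated clone lay well above both control arrays. As deposited, the same probe set read 35 and 28.6 against 215 and 296. No detection calls were among the values used here, so it is unknown whether the control level was above background, and the fold is uncertain to that extent. CTTN is normally prominent in epithelial cells and fibroblasts. The sums of their markers are given above, but 3 of the 5 epithelial markers were below the brightness limit, and a link to CTTN was not tested.

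The other CTTN probe sets were much dimmer. One of them read 3.77 and 14.6 in the control clone and 59.3 and 48.3 in the DLEU1-downregulated clone, a log2 difference of 1.499. Another read 6.1 and 10.3 against 15.7 and 14.7, a log2 difference of 0.37. The brightness limit of about 11.4 was set on the mean of all arrays. The first of the pair passed it only through its DLEU1-downregulated values, and the second lay near it, so both sizes are uncertain. Both were higher on both DLEU1-downregulated arrays than on either control array. Such a lack of overlap was seen in 69.9% of all tested genes, and CTTN was listed for its rise on these arrays. The dimmer probe sets are therefore no independent support. The remaining pair lay under the brightness limit, one at 1.3 and 1.03 against 6 and 14.4, the other at 3.15 and 4.28 against 1.83 and 1.3. Because probe sets differ in their sensitivity, the spread of log2 differences among them is not a spread of CTTN itself.

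**Figure D1:**
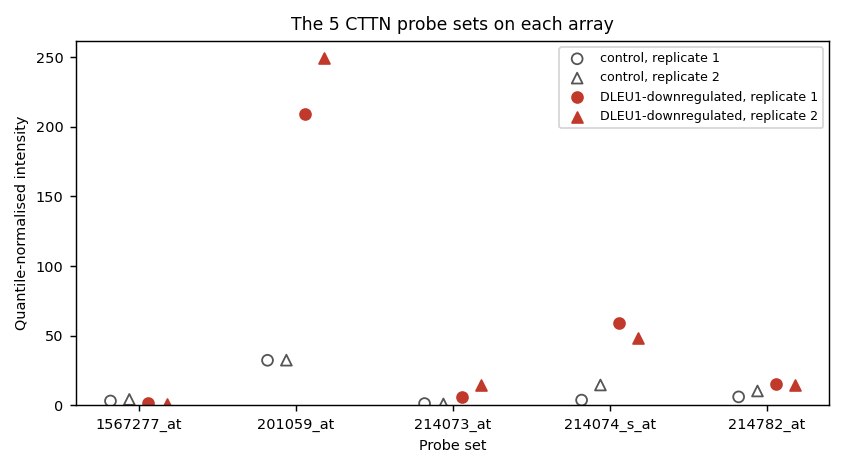
Quantile-normalised intensity (linear axis) of the 5 CTTN probe sets on each array, with control arrays as open grey and DLEU1-downregulated arrays as filled red symbols. The brightest probe set stands at 32.4 and 32.5 in the control clone and at 209 and 249 in the DLEU1-downregulated clone.

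HCLS1, the haematopoietic relative of cortactin, read 2628 and 3080.1 in the control clone and 2754 and 3163 in the DLEU1-downregulated clone. The clones overlapped, and the log2 difference was 0.05 ± 0.08 (SE, limma adjusted p = 0.677). Its sign turned when control replicate 1 or DLEU1-downregulated replicate 2 was left out, and with each array centred on its median the difference was 0.47 (limma adjusted p = 2.07e-04).

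The position of CTTN was compared with that of its neighbours on chromosome 11, taken as the 8 tested genes on either side in the RefSeq gene order. Of these 16 genes, 2 passed the threshold as higher, 1 as lower and 13 not at all. PPFIA1, a liprin that borders CTTN, read 710 and 701 against 820 and 772 (log2 difference 0.17, limma adjusted p = 0.0904), and FADD, a death receptor adaptor, read 438 and 604 against 499 and 562 (0.04). On the far side SHANK2, a scaffold protein of synapses, read 83.2 and 91 against 12.2 and 2.45 (log2 difference -2.18, limma adjusted p = 2.05e-04). The DLEU1-downregulated values lay around and under the brightness limit of about 11.4, so SHANK2 was tested only because of its control values. The size of its fall is uncertain. The next gene, DHCR7 of cholesterol synthesis, rose by a log2 difference of 0.36 (limma adjusted p = 0.02001), and MRPL21, a mitochondrial ribosomal protein gene at the outer end, rose by 0.21 (0.0389). No gene among the 16 rose by more than 0.36, and a part of position in the rise of CTTN was not tested.

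**Figure D2:**
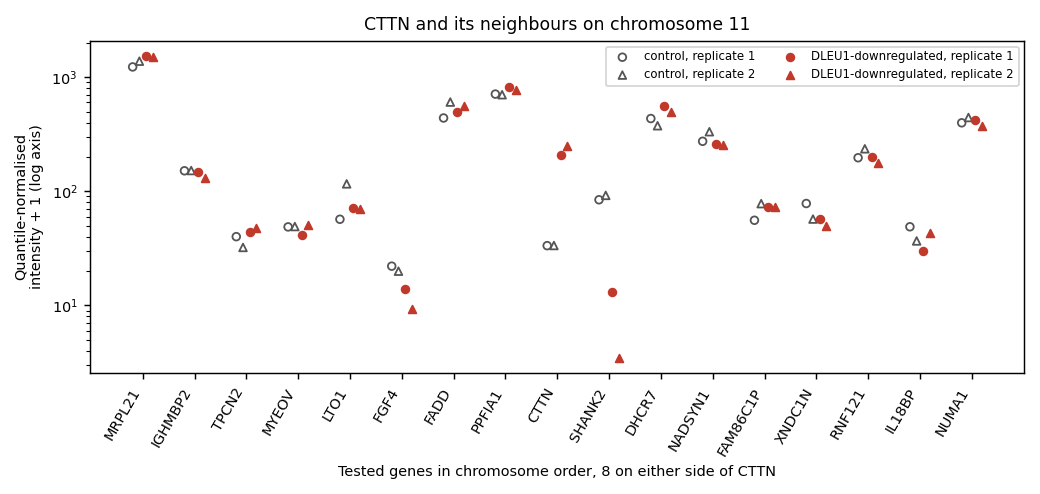
Quantile-normalised intensity plus 1 (log axis) of CTTN and the 8 tested genes on either side of it in chromosome order, on each array. CTTN lies higher and SHANK2 lower on the DLEU1-downregulated arrays (filled red) than on the control arrays (open grey), while 13 of the 16 neighbours did not pass the threshold.

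Across the set without CTTN, 16 of 48 tested genes were higher (33.3%) and 9 were lower (18.8%) in the DLEU1-downregulated clone at a limma adjusted p below 0.05. Over all 32768 tested probe sets 17.1% were higher and 16.7% lower. Over the brightest probe sets of all 13292 tested genes, chosen as the members were, both shares were 20.6%, so the share of lower members was near the background and the share of higher ones above it. The median log2 difference of the 48 genes was 0.15, against -0.01 over all tested genes. With the values as deposited, 14 of the 48 were higher and 1 lower. The background was 20.3% higher and 5.75% lower over genes (17.2% and 5.11% over probe sets). The deposited median was 0.42 for the 48 genes and 0.19 over all genes. How far the scaling moved a gene differed with its brightness. ARPC3 went from -0.09 normalised to 0.28 as deposited, and the dim GSN from -0.16 to -0.10. The 48 and all genes were not matched for brightness, so these medians do not measure an excess in the set. Together with CTTN the counts were 17 higher and 9 lower after normalisation, 15 and 1 as deposited, 36 and 1 with median centring, and 15 and 7 with a common trimmed mean. The shares over all probe sets moved too, to 31.8% higher and 7.57% lower with median centring and to 15.6% and 19.2% with a common trimmed mean. Under these scalings no share over the brightest probe sets of all genes was computed, so the member counts have no like background there. The 2 clones did not overlap in 40 of the 48 genes, and in 69.9% of all tested genes.

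Most of the changes were small. Of the 48 tested genes other than CTTN, 5 were called and at least 1.5-fold higher on the log2(value + 16) scale (ARPC1B, MSN, PFN2, ARPC1A and ACTN4). Another 3 of the 48 were called and at least 1.5-fold lower (ABI1, WASF2 and CORO1B). Over all tested genes 9.81% were called and at least 1.5-fold higher, and 10.4% lower. At this size the share of higher members was thus near the background, and that of lower members was under it. Of the 16 higher calls, 13 held under all 4 scalings (quantile, as deposited, median-centred, trimmed mean), and 9 of these held as well when each array was left out in turn: PFN1, PFN2, ARPC1A, ARPC1B, CAPZA2, CAPZB, ACTN4, MSN and RAC1. Without the intensity trend in the limma fit, PFN1 (adjusted p = 0.107) and CAPZB (0.0695) lost their calls and the other 7 kept them. Of the 9 lower calls, ABI1 alone held under all 4 scalings, and it held without each array too.

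**Figure D3:**
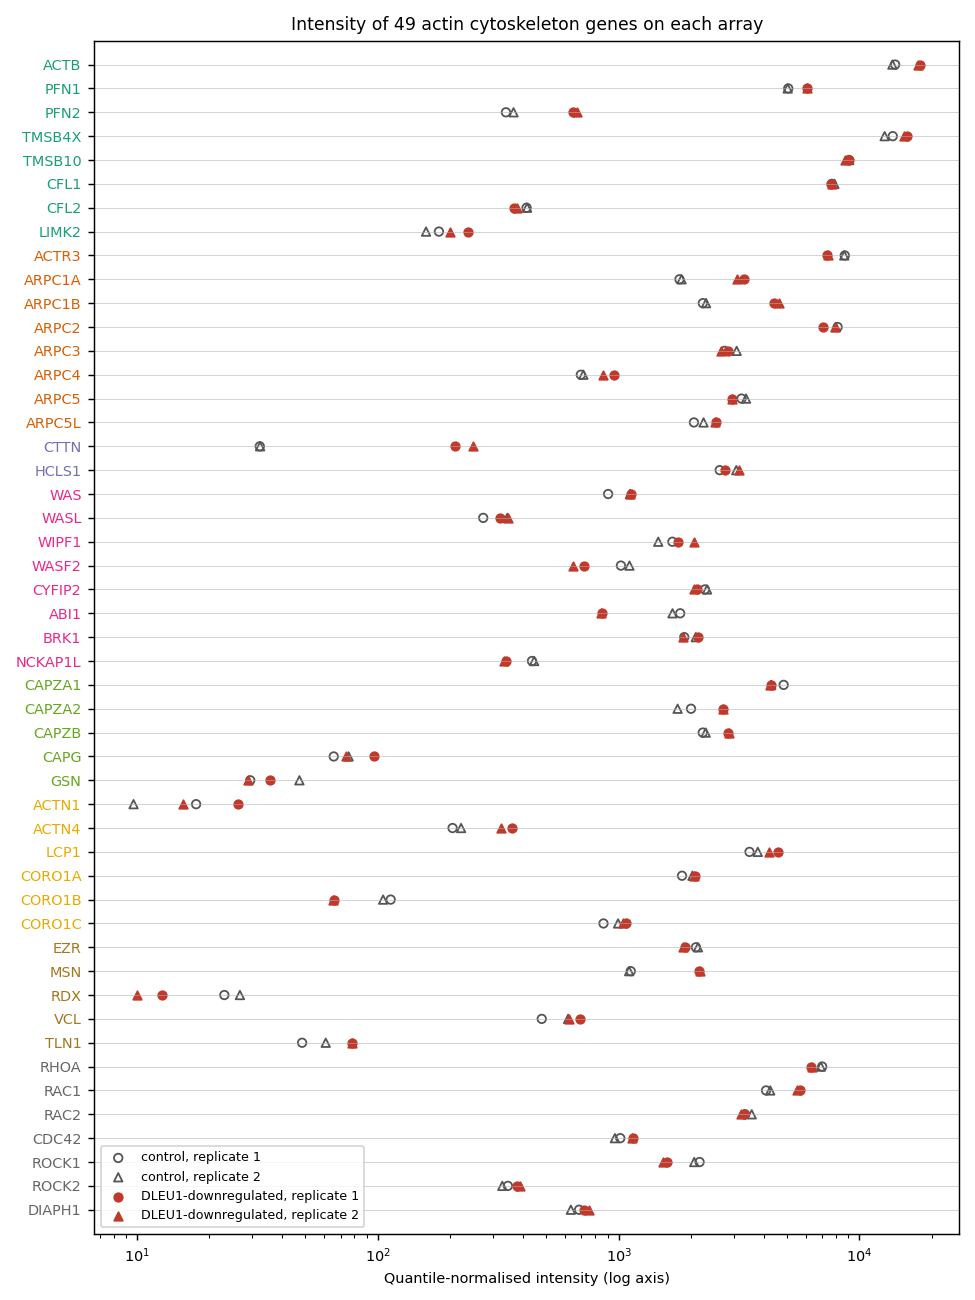
Quantile-normalised intensity (log axis) of the 49 tested genes on each of the 4 arrays, with gene names coloured by role. ARPC1A, ARPC1B, MSN, PFN2 and CTTN lie to the right on the DLEU1-downregulated arrays (filled red) and ABI1 and WASF2 to the left, and levels of different probe sets are not comparable with each other.

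Of the genes for actin itself, monomer binding and filament turnover, 4 of 8 tested rose and none fell. ACTB, the cytoplasmic beta-actin gene, read 14064 and 13704 in the control clone and 17853 and 17540.4 in the other, without overlap. Its log2 difference was 0.35 (limma adjusted p = 4.88e-05), its other 2 probe sets rose by 0.29 each, and with a common trimmed mean the difference shrank to 0.04 (limma adjusted p = 0.735). All 3 probe sets are of a design that can also detect near-identical sequences, so RNA of other actin genes may contribute. The ratio of 3' to 5' signal of the array's ACTB control probe sets, a sign of RNA integrity, was 0.47 and 0.68 (log2) in the control clone and 0.52 and 0.48 in the other, and overlapped. For GAPDH the ratio was -0.173 and -0.165 in the control clone and -0.0953 and -0.157 in the other, which did not overlap, and its part in the results was not tested.

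PFN2, a profilin best known from neurons, read 340.4 and 366 against 647 and 670.3. Both arrays of the DLEU1-downregulated clone stood well above the control clone (1.86-fold, log2 difference 0.87 ± 0.08 SE, limma adjusted p = 6.03e-05). PFN1, the common profilin, read 5062 and 5036 against 6059 and 6082, a smaller difference without overlap (log2 difference 0.26, limma adjusted p = 6.54e-04). TMSB4X, the main monomer-sequestering thymosin, read 13749.8 and 12724 against 15761 and 15239 (0.23, limma adjusted p = 0.00276), and its sign turned to -0.06 with a common trimmed mean. TMSB10, its relative, read 9052 and 9068 against 9052 and 8750, and the clones overlapped (-0.03, limma adjusted p = 0.622). Cofilin 1 (CFL1) had a log2 difference of -0.03 in its brightest probe set, and a dimmer one rose by 0.30 (limma adjusted p = 0.00168). LIMK2, a kinase that inactivates cofilin, had a log2 difference of 0.34 that did not pass (limma adjusted p = 0.0696). CFL2, the muscle-type cofilin, differed between its probe sets: the brightest had -0.15 (limma adjusted p = 0.204), and 2 dimmer ones fell by 0.64 and 0.88.

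Within the Arp2/3 complex, 4 of 8 tested subunit genes rose and 2 fell. ARPC1B and ARPC1A, which encode alternative forms of the same subunit, changed most. ARPC1B read 2237 and 2307 in the control clone and 4417 and 4654 in the DLEU1-downregulated clone, a 2.00-fold difference (log2 difference 0.99 ± 0.05 SE, limma adjusted p = 2.45e-06). ARPC1A read 1789 and 1825 against 3306 and 3103 (0.82 ± 0.05 SE, limma adjusted p = 8.31e-06). Both genes were clearly separated between the clones under all 4 scalings.

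The remaining subunits moved less. ARPC4 read 697 and 714 against 954 and 860.2 (log2 difference 0.35, limma adjusted p = 0.00548), a call lost without DLEU1-downregulated replicate 1 (0.0715), and ARPC5L, an isoform of the ARPC5 subunit, rose by 0.23 (limma adjusted p = 0.0125). The ARPC5L call was lost without DLEU1-downregulated replicate 1 (0.0798) or DLEU1-downregulated replicate 2 (0.0661), and of its other 3 probe sets 1 rose (0.26) and 2 did not pass (0.10 and 0.16). ACTR3, one of the actin-related core proteins, read 8692 and 8647 against 7345 and 7408 (-0.23, limma adjusted p = 8.49e-04), but the sign turned to 0.04 as deposited and 0.08 with median centring. ARPC5 fell by 0.16 (limma adjusted p = 0.0221), again with the opposite sign as deposited (0.20) and with median centring (0.24), and the call was lost without control replicate 2 (0.0811), DLEU1-downregulated replicate 1 (0.102) or DLEU1-downregulated replicate 2 (0.110). A dimmer ACTR3 probe set rose by 0.36 while 2 others fell with the brightest one. ARPC2, a core scaffold subunit, read 8115 and 7976 against 7037 and 7885 (-0.11, limma adjusted p = 0.142), while another ARPC2 probe set fell by 0.59 (limma adjusted p = 3.55e-04), though by 0.26 as deposited. ARPC3 had a log2 difference of -0.09. The subunits of the complex therefore changed by unequal amounts, and the direction of several depended on the scaling. As deposited 4 were higher and 0 lower, all differences were positive, and their median was 0.44, against 0.19 over all genes. All genes were not matched to the subunits for brightness, so the medians do not measure an excess.

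Of 8 tested WASP and WAVE genes, the activators of Arp2/3, 1 rose and 3 fell, and this was the only one of the role groups with more falls than rises. As deposited the counts were 1 and 1. ABI1, the Abl interactor that holds the WAVE complex together, read 1802 and 1674 in the control clone and 852 and 845 in the DLEU1-downregulated clone. It fell 2.05-fold (log2 difference -1.02 ± 0.06 SE, limma adjusted p = 7.22e-06), and -0.66 as deposited (limma adjusted p = 0.0247). A second ABI1 probe set fell by 1.13.

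WASF2, the WAVE2 protein that nucleates actin at the leading edge, read 1022 and 1109 against 716 and 649. It fell by 0.63 (limma adjusted p = 2.73e-04) and its other 2 probe sets fell by 0.81 and 0.55, while as deposited the difference was -0.29 and not past the threshold (limma adjusted p = 0.427). NCKAP1L, or HEM1, the blood-cell subunit of the same complex, read 437 and 446 against 339.7 and 334 (-0.37, limma adjusted p = 0.00748). The call was lost without either DLEU1-downregulated array (0.0504 and 0.0556) and as deposited (-0.044), and another probe set went the other way, at 232 and 233 against 372 and 406 (0.70, limma adjusted p = 4.91e-04). CYFIP2, a RAC-binding subunit, read 2281 and 2329 against 2116 and 2059.7 in its brightest probe set (-0.14, limma adjusted p = 0.0522) and 546 and 532 against 780 and 799 in the other (0.54, limma adjusted p = 4.00e-04), so its direction depended on the probe set. BRK1, the smallest subunit, had a log2 difference of 0.01 (limma adjusted p = 0.963).

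On the WASP side, WIPF1 (WIP), which protects WASP from degradation, read 1672 and 1460.5 against 1772 and 2062 (log2 difference 0.29, limma adjusted p = 0.0298). A dimmer WIPF1 probe set fell by 0.56, and the call was lost without control replicate 2 (limma adjusted p = 0.151) or DLEU1-downregulated replicate 2 (0.222). WAS, the Wiskott-Aldrich syndrome protein of blood cells, and WASL, its broadly expressed relative, had log2 differences of 0.16 (limma adjusted p = 0.233) and 0.11 (0.526).

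**Figure D4:**
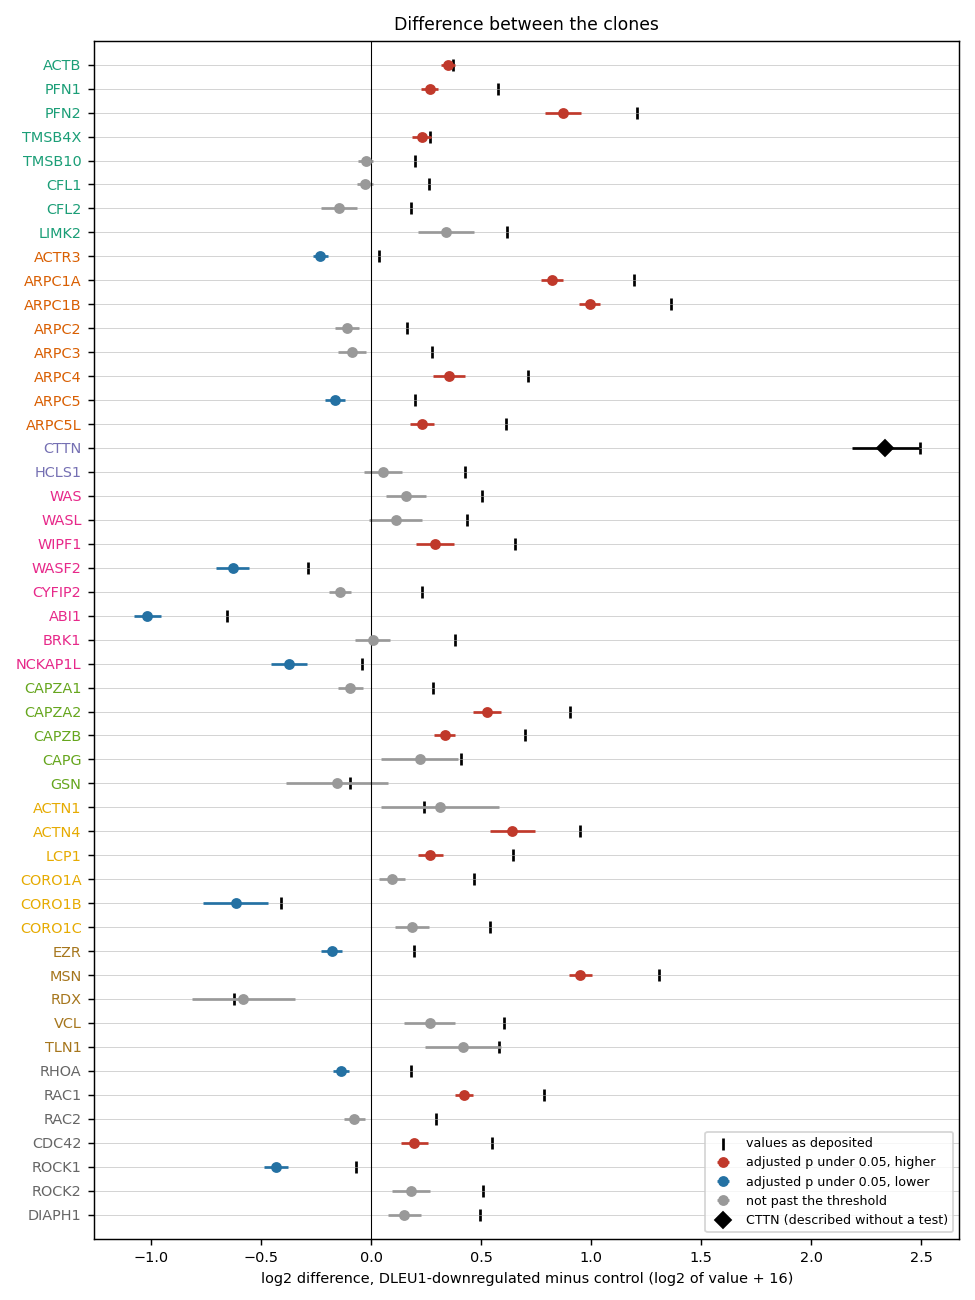
Log2 difference (DLEU1-downregulated minus control, log2 of value + 16) of the 49 tested genes, as points with standard errors after quantile normalisation and as black ticks for the values as deposited. CTTN at 2.34 lies farthest to the right and ABI1 at -1.02 farthest to the left, and the deposited values of most genes lie to the right of the normalised ones.

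Capping proteins close the fast-growing filament end, and 2 of 5 tested genes for capping and severing rose while none fell. CAPZA2, an alpha subunit of capping protein, read 1998 and 1757 in the control clone and 2700.5 and 2708 in the other (log2 difference 0.53, limma adjusted p = 2.98e-04), and a second probe set rose by 0.69. CAPZB, the beta subunit, read 2235 and 2299 against 2851 and 2867 (0.33, limma adjusted p = 6.30e-04). CAPZA1, the other alpha subunit, read 4844 and 4302 against 4272 and 4265 and did not pass (-0.10, limma adjusted p = 0.233). The dim CAPG (0.22) and GSN (-0.16), which encode gelsolin-family proteins, overlapped between the clones.

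Among crosslinkers and coronins, 2 of 6 rose and 1 fell. ACTN4, a non-muscle alpha-actinin, read 204 and 222 against 359 and 323 (log2 difference 0.64, limma adjusted p = 0.00138). LCP1, or L-plastin, the filament bundler of leukocytes, read 3494 and 3783 against 4577 and 4196 (0.27, limma adjusted p = 0.00633), and the call was lost without DLEU1-downregulated replicate 1 (limma adjusted p = 0.0685). CORO1B, a coronin that works with Arp2/3, read 113 and 105 against 66 and 65.2 (-0.62, limma adjusted p = 0.0114). That call was lost without either DLEU1-downregulated array (0.0711 and 0.0693) and on the deposited values (-0.41, limma adjusted p = 0.250). CORO1A, the leukocyte coronin, read 1834 and 2026 against 2068 and 2054 (0.10, limma adjusted p = 0.258), CORO1C had 0.18 (0.0980) in its brightest probe set and 0.55 (1.66e-04) in the other, and ACTN1 was dim and overlapped (0.31, 0.421).

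Membrane linkers of the ezrin, radixin and moesin family, which tie filaments to the cell cortex, differed from each other. MSN, or moesin, read 1123 and 1106 in the control clone and 2155 and 2181 in the DLEU1-downregulated clone. It rose 1.95-fold (log2 difference 0.95 ± 0.05 SE, limma adjusted p = 4.61e-06), with both duplicates close together. EZR, or ezrin, read 2094 and 2135 against 1879 and 1847 (-0.18, limma adjusted p = 0.0209), but the sign turned to 0.20 as deposited and 0.24 with median centring. Its other 4 probe sets did not pass, and the call was lost without control replicate 2 (0.0601), DLEU1-downregulated replicate 1 (0.0877) or DLEU1-downregulated replicate 2 (0.131). RDX, or radixin, was dim at 23.1 and 26.8 against 12.7 and 9.98 (-0.58, limma adjusted p = 0.0900). Of the adhesion linkers, VCL (vinculin) read 480 and 617 against 690.1 and 625 (0.26, limma adjusted p = 0.113) and TLN1 (talin 1) had 0.42 (0.0973).

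RAC1, which acts through WAVE, read 4094 and 4261 against 5681 and 5522 (log2 difference 0.42, limma adjusted p = 9.47e-05), and its other 3 tested probe sets rose by 0.28 to 0.82. RHOA, which drives contractility, read 7002 and 6912 against 6285 and 6367 (-0.14, limma adjusted p = 0.0179), with the opposite sign as deposited (0.18) and with median centring (0.22), and its call was lost without either DLEU1-downregulated array (0.113 and 0.0798). CDC42, which acts through WASP, read 1016 and 965 against 1142 and 1131 (0.20, limma adjusted p = 0.0359). That call was lost as deposited (limma adjusted p = 0.0748) and without control replicate 2, DLEU1-downregulated replicate 1 or DLEU1-downregulated replicate 2 (0.120, 0.160 and 0.136).

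RAC2, the blood-cell RAC, read 3350.3 and 3569 against 3314 and 3236 (log2 difference -0.08, limma adjusted p = 0.256), and a dimmer RAC2 probe set fell by 0.38 (limma adjusted p = 0.00779). ROCK1, a kinase activated by RHOA, read 2168 and 2059.7 against 1589 and 1528 (-0.44, limma adjusted p = 3.40e-04), but a dim probe set rose by 0.94 (limma adjusted p = 0.0463) and as deposited the difference was -0.07. ROCK2 (0.18) and the formin DIAPH1 (0.15) did not pass. Over the set, 30 genes had at least 2 tested probe sets, and 4 of them (ACTR3, NCKAP1L, ROCK1 and WIPF1) had probe sets past the threshold in both directions.

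Several of the higher genes share a chromosome, a feature that the choice of genes by function did not use. Of the 6 tested members on chromosome 7 (ACTB, RAC1, ARPC1A, ARPC1B, CAPZA2 and WASL), 5 rose and none fell. Over all 636 tested genes of chromosome 7, 43.7% were higher and 9.43% lower, with a median log2 difference of 0.31, the highest of the autosomes and X. The others ranged from -0.17 on chromosome 13 to 0.29 on chromosome 20, which holds no member and where 42.3% were higher. As deposited 45% of chromosome 7 genes were higher and 4.56% lower. On the other chromosomes, 11 of 42 members other than CTTN rose (26.2%) and 9 fell (21.4%), against 19.5% and 21.2% of 12645 genes there.

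ARPC1A and ARPC1B are next to each other in the RefSeq gene order. Among the 8 tested genes on either side of ARPC1A, 9 of 16 were higher, 4 lower and 3 not called. The member ARPC1B is itself among the 9, and the median log2 difference of the 16 was 0.42. PDAP1, the gene after ARPC1B, read 400 and 368 against 670 and 776 (log2 difference 0.88, limma adjusted p = 1.27e-04), and SMURF1, a ubiquitin ligase gene just before ARPC1A, read 121 and 123 against 203 and 194 (0.64, limma adjusted p = 0.00290). Farther out on the same side BHLHA15, a factor of secretory cells, read 37.8 and 53.6 against 3.85 and 10.9 (log2 difference -1.40, limma adjusted p = 0.00299). The DLEU1-downregulated values of BHLHA15 lay under the brightness limit of about 11.4, so it was tested only because of its control values. MSN lies on chromosome X (median log2 difference -0.01) and PFN2 on chromosome 3 (-0.05). The genes next to MSN and PFN2 were not examined, and a part of their position in the rises was not tested.

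**Figure D5:**
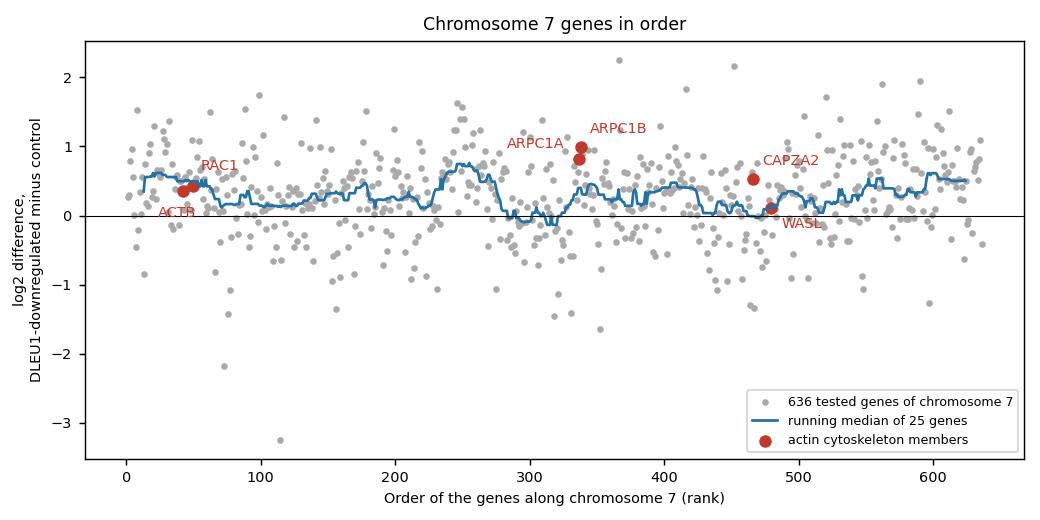
Log2 difference (DLEU1-downregulated minus control) of the 636 tested genes of chromosome 7 in their order along the chromosome, with a running median of 25 genes in blue and the 6 members in red. The running median lies above 0 over most of the chromosome, and ARPC1A and ARPC1B lie side by side above it at 0.82 and 0.99.

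Other genes of actin regulation, 97 in all and none of them members, gave a wider view. Of 78 tested, 21 rose (26.9%) and 20 fell (25.6%), with a median log2 difference of -0.02, against a background of 20.6% in each direction. As deposited 20 rose and 5 fell. The largest fall belonged to WASF3 (WAVE3), the third WAVE protein, which read 1347 and 1282 in the control clone and 161 and 150.1 in the DLEU1-downregulated clone (8.45-fold lower, log2 difference -2.95 ± 0.08 SE, limma adjusted p = 2.31e-07). WASF3 thus fell together with WASF2 and ABI1, while WASF1 was not measured here. WASF3 lies on chromosome 13, as do DLEU1 and the member LCP1.

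Among the other falls, GMFG, which removes branches made by Arp2/3, read 884 and 901 against 285 and 296 (log2 difference -1.57, limma adjusted p = 2.495e-06). MYO1E, a membrane-bound myosin, fell by 1.33 (limma adjusted p = 0.00189) from 59.5 and 73.1 to 21.7 and 12.3. Both genes were lower on both DLEU1-downregulated arrays than on either control array.

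The largest rises in this list were those of FHOD1, a formin, at 77.8 and 108 against 270 and 267 (log2 difference 1.40, limma adjusted p = 1.38e-04), and LIMK1, a cofilin kinase, at 15.6 and 20.6 against 72 and 74.5 (1.39, limma adjusted p = 6.68e-04). The adhesion proteins PXN (paxillin) and ZYX (zyxin) rose by 1.14 (limma adjusted p = 0.0252) and 1.09 (0.00299) from dim control levels. The PXN values were 32.1 and 6.88 against 54.6 and 59.2, and its call was lost without control replicate 2 (0.0638), DLEU1-downregulated replicate 1 (0.104) or DLEU1-downregulated replicate 2 (0.120). LIMK1, ZYX and the RAC activator subunit ELMO1 were the 3 risen genes among 6 tested ones of this list on chromosome 7.

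Many cytoskeletal genes carry a CArG box, the motif bound by serum response factor, which senses the pool of free actin through its MRTF cofactors. The motif (10 bases, a pattern that matches at the same places on both strands) was searched in the 250 bases before the start of each gene in RefSeq windows of GRCh38.p14. Windows were found for 46 of the 54 members, and 4 of the 46 held it (8.70%), against 394 of 27305 genes (1.44%). Counted by window, since some genes have several, 5.33% of 75 member windows and 1.16% of 35116 windows held it. The sites are shown because they mark the members with the motif, with the box in capitals and 10 bases of sequence on each side, 5′ to 3′ on the gene's strand.
ACTG1, chr17:81512874-81512903, minus strand: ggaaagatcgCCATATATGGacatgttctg
FLNA, chrX:154374709-154374738, minus strand: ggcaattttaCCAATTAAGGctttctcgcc
ROCK2, chr2:11345491-11345520, minus strand: aaatgtacttCCTTAAATGGgtttactggg
ACTN1, chr14:68977718-68977747, minus strand: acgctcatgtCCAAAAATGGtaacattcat
The boxes begin 94 bases before the start in ACTG1 and FLNA, 73 in ROCK2 and 171 in ACTN1. ACTG1 and FLNA had no probe set of their own, and ROCK2 and ACTN1 did not pass the threshold. Of the 19 members past the threshold that had a window, 0 held the motif, which says only that these letters are not in these windows. No window was found for CTTN, ACTB, ARPC1B, PFN2, NCKAP1L, RAC1, RAC2 or WASF2.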

How the data were processed

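Gene expression was measured on 4 Affymetrix HG-U133 Plus 2.0 arrays, 2 from a DLEU1-downregulated and 2 from a control Raji clone. The authors deposited 1 table of linear signal intensity for 54613 probe sets and 62 controls per array, made with MAS5 per the submitters' processing notes. Version, target and detection calls of MAS5, like the genome build, are not given in the sources used here, and the trimmed means show no common target. The number of arrays limits the precision.

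Control probe sets were left out, arrays were quantile-normalised, and values became log2(value + 16). The 21845 probe sets whose mean lay below the 40th percentile were not tested, which left 32768. Differences were tested with limma 3.58.1 under R 4.3.3 (lmFit and trended eBayes, prior degrees of freedom 6.76), with Benjamini-Hochberg adjustment over all tested probe sets and a threshold of 0.05. With 2 arrays a group, an exact two-sided permutation test cannot go below p = 0.333. The platform annotation of 2016 gave 1 symbol for 41091 probe sets, several for 1801 and none for 11721, and 41037 were updated through RefSeq (GRCh38.p14). The RefSeq table gave the updated symbols, the chromosomes and the gene order. The fit was tested on simulated data.

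The members, the list of other actin genes and the markers were chosen with earlier results of these data known. By rule, values on each array are given for CTTN, HCLS1 and ACTB, for up to 4 called members of each role with the largest differences and the brightest one not called, and for the 4 highest and 4 lowest called genes of the other list. Of these, 1 is not reported here. Other values, the chromosome 7 comparison, the ARPC1A neighbours and the CArG search were chosen after values were seen. Alternatives were other scalings, pseudocounts, brightness limits, thresholds and probe set rules, eBayes without a trend, a replicate block and leaving out each array.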

Additional observations from a re-analysis of the deposited data

How the results depend on the processing

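The counts and the differences of 40 genes chosen by the naming rule were recomputed under the alternatives. Probe sets called fell from 11073 to 7293 as deposited, 7156 without the intensity trend and 7158 at a threshold of 0.01, and ranged from 7010 to 10078 when 1 array was left out (lowest without DLEU1-downregulated replicate 1, and 7356 without its replicate 2). Higher members, 17 with CTTN, became 36 with median centring and 8 without the trend, while all probe sets called higher went from 5588 to 10420 and 3576. Lower members, 9, became 1 as deposited, 1 with median centring, 5 without the trend and 5 at a threshold of 0.01, and ranged from 4 to 9 with 1 array left out (4 without DLEU1-downregulated replicate 1, 5 without its replicate 2). Of the other actin genes, 21 higher became 32 with median centring and 10 without the trend, and 20 lower became 5 as deposited, 5 with median centring and 13 without the trend. The log2 difference of CTTN, 2.34, was 2.49 as deposited, 2.54 with median centring, 2.78 with a pseudocount of 1, 1.60 with one of 64, 1.40 as the mean of its tested probe sets, and 2.16 to 2.43 with 1 array left out.

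Among the 40, signs turned, as deposited and with median centring, for TMSB10 (0.20 and 0.24), ACTR3 (0.037 and 0.081), ARPC2 (0.16 and 0.21), CYFIP2 (0.23 and 0.27), CAPZA1 (0.28 and 0.32), EZR (0.20 and 0.24), RHOA (0.18 and 0.22) and RAC2 (0.29 and 0.34), as they did outside the 40 for ARPC5 (0.20 and 0.24), ARPC3 (0.28 and 0.32), CFL1 (0.26 and 0.31) and CFL2 (0.18 and 0.22), and for TMSB4X with a common trimmed mean (-0.063). The mean over a gene's probe sets turned NCKAP1L (0.071), WIPF1 (-0.13), CYFIP2 (0.20) and ROCK1 (0.15). HCLS1 ranged from -0.063 to 0.16 with 1 array left out. The cause was not tested in any of these cases. With 1 array left out, the lone array was assumed to vary like the other group.

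No shared effect of the replicate number was seen: deviations of arrays with the same number from their group means correlated at -0.014. The labels do not say whether arrays with the same number were handled together, and this value cannot decide it. With the replicate number as a block, 11185 probe sets passed, 16 members were higher and 9 lower, and of the other actin genes 22 were higher and 19 lower. CDC42 was the only one of the 40 that lost its call under that block (limma adjusted p = 0.0503). Dim probe sets, CTTN in the control clone among them, lie where 2 arrays a group and values without detection calls say least about size.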
